A study of Mus musculus with 16 samples.

Results

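The GlycoGeneChip, a custom Affymetrix array of genes that build, cleave or bind glycans together with cytokine and growth factor genes, was used to ask which transcripts of the cecal epithelium differed between any bacterial colonization and the germ-free state. The comparison held 8 of the 16 GeneChips of the series. Germ-free (GF) NMRI mice were set against NMRI mice mono-associated for 10 days with B. thetaiotaomicron (Bt) or with B. longum (Bl), or co-colonized with the pair (Bt/Bl). The 2 GF GeneChips were numbered 9175 and 9176. The 6 colonized ones were 9177 and 9568 for Bt, 9181 and 9182 for Bl, and the pair 9179 and 9180 for Bt/Bl. All groups received the same polysaccharide-rich chow, and each GeneChip was labelled as a pool of 4 adult mice whose cecal epithelium had been taken by laser capture, with the RNA amplified before hybridization. The paper's methods describe the animals as males, but the sex-linked genes Eif2s3y and Xist set the GF pair apart on the Mouse 430 2.0, as given below. For the Mouse 430 2.0 the methods describe the 2 GeneChips of a state as separate amplifications of 1 RNA pool, and nothing says that those of the GlycoGeneChip came from separate pools, so the p values measure only the spread between GeneChips, which may be technical.

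Of the 1813 probe sets of the table, 702 were named for a single mouse gene and were not controls, and they covered 573 genes. Another 839 carried human gene names and 266 were controls or had no single gene name. Values were linear signals, and the trimmed mean of a GeneChip lay between 1497 and 1503. A floor of 268.1, which 25% of all signals fell below, replaced lower signals before log2 was taken. For a mouse probe set to be tested, 1 or more states had to give signals over 860.3, the table's median, on each of their GeneChips. That left 451 probe sets of 400 genes, and 251 were not tested.

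Gut epithelial cells clothe themselves in glycans. Mucins are decorated with O-linked chains that glycosyltransferases start, extend and cap with fucose, sialic acid or sulfate, and these chains serve resident bacteria both as a point of attachment and as food. Lectins read the same glycans, and those of the Reg3 family are secreted by the epithelium and bind bacterial surfaces.

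No probe set passed the test as higher in the mean of the 3 colonized states, and 3 passed as lower. The 3 were Mag, a sialic acid-binding lectin known from myelin, Epo, the hormone erythropoietin, and Ccl27a, a chemokine known from skin. The counts were 0% and 0.665% of the 451 probe sets in limma at an adjusted p of 0.05, whereas 42 had an unadjusted p under 0.05 (23 higher and 19 lower), with 22.55 being 5% of the number tested. In a limma fit of 6 colonized against 2 GF GeneChips with no term for the state, 0 probe sets were called and 19 had an unadjusted p under 0.05. The median log2 fold change of all 451 was -0.06, and 46.6% of them were above 0.

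Mag had a signal of 2171 and 2259 in GF, 424 and 152 in Bt, 282 and 179 in Bl, then 382 and 163 in Bt/Bl. Both GF GeneChips stood above all 6 colonized ones, and 3 of the 6 lay under the floor. With the floor in place Mag was 7.15-fold lower after colonization (-2.84 on the log2 scale with a standard error of 0.55, adjusted p = 0.0016 by limma). Epo had 1044 and 1896 in GF, 421 and 134 for Bt, 137 and 277 for Bl, and finally 239 and 160 for Bt/Bl. The groups did not overlap, 4 colonized values lay under the floor, and the change was -2.28 (standard error 0.45, adjusted p = 0.0016 by limma).

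The called probe set of Ccl27a had 1460 and 970 in GF, 160 and 125 in Bt, 101 and 142 in Bl, then 56.2 and 433 in Bt/Bl. The groups did not overlap either, and 5 of the 6 colonized values lay under the floor (a log2 change of -2.04 with a standard error of 0.42, adjusted p = 0.0024 by limma). A further tested probe set of Ccl27a went the other way, with 330 and 242 in GF and a lowest, median and highest colonized signal of 213, 983 and 2164 (log2 fold change 1.25, adjusted p = 0.531). The direction for this gene therefore depended on the probe set. A further probe set of Mag was not tested, with 1147 and 603 in GF against 424 to 4151, and it overlapped.

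Each of the 3 called probe sets had entered the test through GF alone, since no colonized state exceeded the median on both of its GeneChips. There were 33 such probe sets, and a probe set that is kept only because GF is high has to be lower elsewhere. All 3 calls were lost without the intensity trend in the model of the spread (adjusted p 0.094 for Mag, 0.171 for Epo and 0.184 for Ccl27a). All 3 were lost too when GeneChip 9182 of Bl or GeneChip 9179 of Bt/Bl was left out. Ccl27a was lost without 9175 of GF or 9177 of Bt and Mag without 9180 of Bt/Bl, and without GeneChip 9176 of GF 7 were lower and 2 higher. The log2 fold change of Mag stayed between -3.19 and -1.36 over all 20 alternatives, and its highest adjusted p was 0.533.

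**Figure D1:**
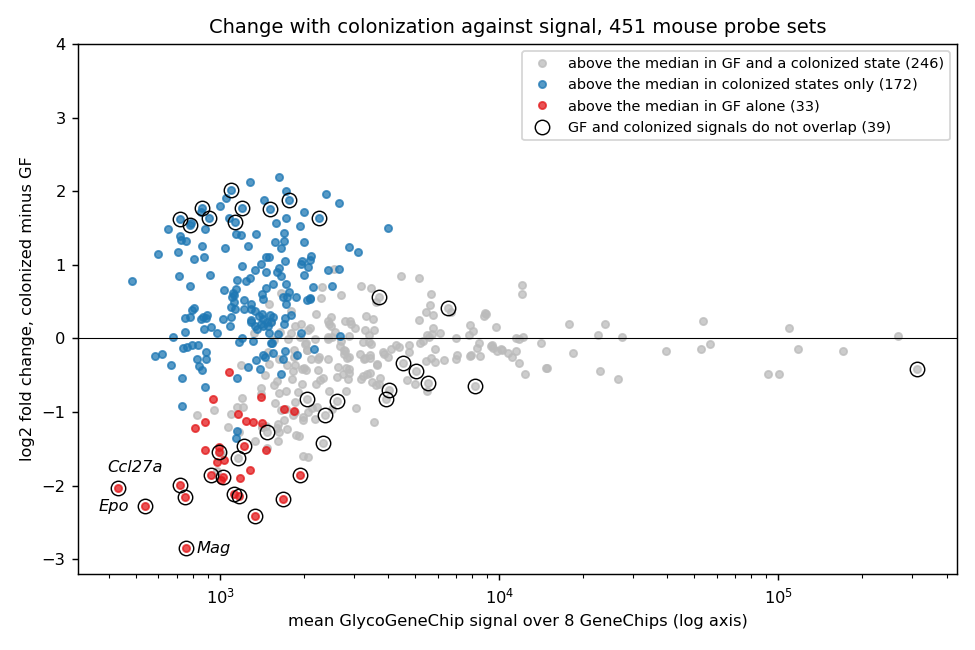
Log2 fold change between the mean of the 3 colonized states and GF (y axis) against the mean signal over the 8 GeneChips (x axis, log) for the 451 tested mouse probe sets. Red points were above the median of all values in GF alone, blue points in colonized states only and grey points in both, and circles mark the 39 probe sets whose GF and colonized signals did not overlap. The 33 red points all lie below 0, and points spread widely at low signal and narrowly at high signal.

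The plot of change against signal shows how the error depended on brightness. Among the 113 probe sets with the highest mean signal the median standard error was 0.31 on the log2 scale, which is a 1.24-fold range. It was 0.83 among the 113 dimmest and 1.01 among the next 113. The 2 GeneChips of a state correlated at a median of 0.639 (Spearman, over the mouse probe sets), GF and colonized GeneChips at 0.600, and GeneChips of different colonized states at 0.584. The lowest value within a state, 0.598, lay below the highest between GF and colonized GeneChips, 0.666.

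In 27 probe sets both GF signals lay above all 6 colonized signals (5.99% of those tested), and in 12 both lay below (2.66%). Of the 27, 14 had entered the test through GF alone, and of the 12, 10 had entered through colonized states only. Among the 149 probe sets that exceeded the median in all 4 states, 9 were lower without overlap and 2 were higher. Over all 702 mouse probe sets, tested or not, the counts were 29 lower and 23 higher.

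**Figure D2:**
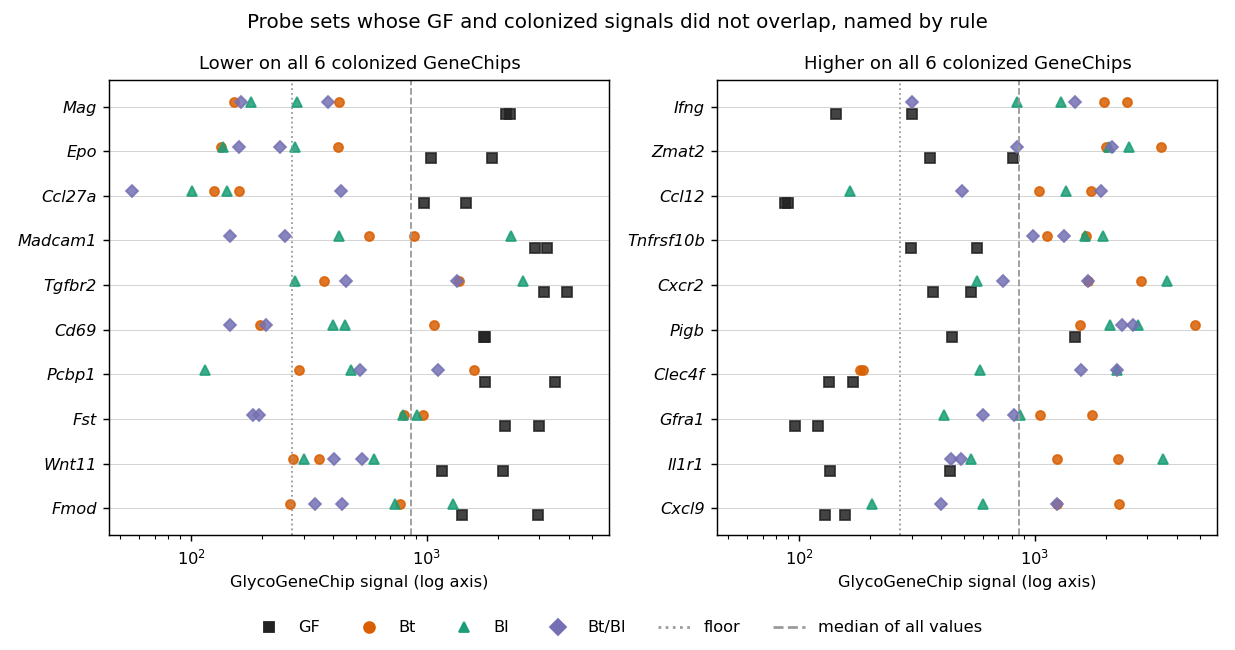
Signals on each GeneChip (x axis, log) of the 10 probe sets with the largest decrease, called ones first, and the 10 with the largest increase among those whose GF and colonized signals did not overlap. Black squares are GF, the dotted line is the floor of 268.1 and the dashed line the median of all values, 860.3. Only Mag, Epo and Ccl27a passed the test, and the GF squares lie to the right of all colonized points on the left panel and to their left on the right panel.

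The 7 next probe sets of the lower group did not pass the test. They were picked for lack of overlap and all had entered the test through GF alone, so their lower direction is not a result. Madcam1, the vascular addressin that recruits lymphocytes to the gut, had 3221 and 2888 in GF and a lowest, median and highest colonized signal of 146, 496 and 2281 (log2 fold change -2.42, adjusted p = 0.499). Cd69, a lectin-like activation marker of lymphocytes, had 1747 and 1757 in GF against 147, 304.5 and 1073 (-2.15, adjusted p = 0.192), and passed only without GeneChip 9568 of Bt (adjusted p = 0.026 by limma). Wnt11, a secreted Wnt ligand, had 2107 and 1154 against 270.0, 377 and 598 (-1.99, adjusted p = 0.192). The colonized values spread widely for Madcam1 and Cd69 and less so for Wnt11. Fst, or follistatin, which binds activins, had 2135 and 3001 in GF against 184, 797 and 959 (-2.11, adjusted p = 0.499), and passed only with the floor set at the median (adjusted p = 0.046 by limma). Tgfbr2, the type II receptor of transforming growth factor beta, Pcbp1, an RNA-binding protein, and Fmod, a small proteoglycan of connective tissue, had changes of -2.18, -2.14 and -1.89, each with an adjusted p of 0.499. The brighter probe set of Pcbp1 had -0.44 (adjusted p = 0.531).

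On the higher side no probe set passed. Ifng, interferon gamma, had 302 and 144 in GF and a lowest, median and highest colonized signal of 302, 1385 and 2447 (log2 fold change 2.02, standard error 0.92, adjusted p = 0.499). Its highest GF and lowest colonized values were 301.8 and 302.0 and so barely separate. Cxcl9, a chemokine induced by interferon gamma, had 129 and 156 against 204, 921 and 2266 (1.54, adjusted p = 0.499). Ccl12, a monocyte chemokine, had 89.4 and 87.0 against 165, 1195 and 1905 (1.78, adjusted p = 0.499), so both its GF values lay under the floor. Cxcr2, a neutrophil chemokine receptor, had 371 and 537 against 569, 1683 and 3622 (1.76, adjusted p = 0.531).

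Pigb, a mannosyltransferase of the glycosylphosphatidylinositol anchor, had 1476 and 444 in GF and 1553, 2469 and 4762 as the lowest, median and highest colonized signal (log2 fold change 1.64, adjusted p = 0.499). Zmat2, Tnfrsf10b (a death receptor for the ligand TRAIL), Clec4f (a C-type lectin), Gfra1 (a co-receptor of glial-derived neurotrophic factor) and Il1r1 (the interleukin-1 receptor) had changes between 1.58 and 1.89, and their adjusted p values were 0.499 or 0.531. Other tested probe sets of Ccl12, Zmat2 and Il1r1 had -0.06, 0.60 and -1.79, all with overlap. No member of either group that entered the test through 1 group alone can be counted as support for a direction.

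A closer set is formed by the 11 probe sets that exceeded the median in all 4 states and still did not overlap; they are named here after their values were seen. Papss1, which makes the donor for all sulfation reactions, had 10454 and 11516 in GF, 6002 and 5244 for Bt, 5802 and 7762 for Bl, and finally 8684 and 9788 for Bt/Bl (log2 fold change -0.64, standard error 0.27, adjusted p = 0.499). The Bt/Bl pair lay between GF and the other colonized GeneChips. Lamp1, a heavily glycosylated protein of the lysosomal membrane, had 381104 and 386048 in GF against 219609, 286435 and 354239 (-0.41, adjusted p = 0.531). Ugt8a, which makes galactosylceramide, had 5246 and 5536 against 1460, 3532 and 5019 (-0.70, adjusted p = 0.566).

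Gla and Idua, lysosomal enzymes that remove galactose and iduronic acid, had changes of -0.61 and -0.44. Kitl, the ligand of the receptor Kit, had -0.82, the Wnt ligands Wnt16 and Wnt2 had -1.04 and -0.84, and Gnpnat1, of UDP-GlcNAc synthesis, had -0.33. None of these passed the test, with adjusted p values from 0.53 to 0.83. The 2 higher ones were Pgm1, which interconverts glucose phosphates, and Cd22, a Siglec of B cells. Pgm1 had 5305 and 5109 in GF against 5868, 6739 and 8702 (log2 fold change 0.42, 90% interval from -0.08 to 0.91, adjusted p = 0.713). Cd22 had 2611 and 2664 against 2718, 3968 and 6271 (0.57, adjusted p = 0.716).

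Reg3b, a secreted lectin that kills bacteria, changed most among the colonized states, and it cancelled out in their mean. Its brighter probe set had 44347 and 57740 in GF, 194932 and 199690 in Bt, 3599 and 1195 in Bl, then 110988 and 123018 in Bt/Bl. Against GF it was 3.90-fold higher in Bt, 24.4-fold lower in Bl and 2.31-fold higher in Bt/Bl (log2 fold changes 1.96, -4.61 and 1.21). All 3 of these passed (adjusted p = 2.45e-06, 2.44e-18 and 0.0149 by limma), and no state overlapped another. Over 16 alternatives the sign never changed and Bl passed each time, but Bt passed in 9 and Bt/Bl in 5. Bt was lost without the filter or the intensity trend and without GeneChip 9175, 9176, 9177, 9568 or 9179. Bt/Bl was lost in these too, without the floor, with the floor at the median, with the stricter filter and without GeneChip 9180 (highest adjusted p 0.419 for Bt, 0.701 for Bt/Bl). The change of the mean was only -0.48 (standard error 0.23, adjusted p = 0.499). It was 1.59 with Bl left out of the mean, -1.70 with Bt left out and -1.32 with Bt/Bl left out, and each of these passed (adjusted p = 1.26e-05, 4.84e-06 and 0.00104 by limma).

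The dimmer probe set of Reg3b had 2611 and 3912 in GF, 34227 and 27249 for Bt, 139 and 115 for Bl, and finally 12641 and 15209 for Bt/Bl. The order of the states was the same, with both Bl values under the floor. Its changes against GF were 3.26, -3.58 and 2.12, of which that of Bl is set by the floor and was -4.66 without it, and that of the mean was 0.60 (standard error 0.37, adjusted p = 0.588), of the opposite sign to the brighter probe set. The 3 changes by state kept their sign in all 16 alternatives. Bl passed in each, Bt in all but the one without the intensity trend (adjusted p = 0.117), and Bt/Bl in 8. Bt/Bl was lost without the floor, the filter or the intensity trend and without GeneChip 9175, 9177, 9568, 9179 or 9180 (highest adjusted p 0.215). A mean over colonized states thus gave Reg3b no settled direction. Between Bt and Bl the difference was 6.57 (standard error 0.28) with the brighter and 6.83 with the dimmer probe set on the log2 scale. The value of the dimmer one is limited by the floor in Bl, and was 7.91 without the floor.

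**Figure D3:**
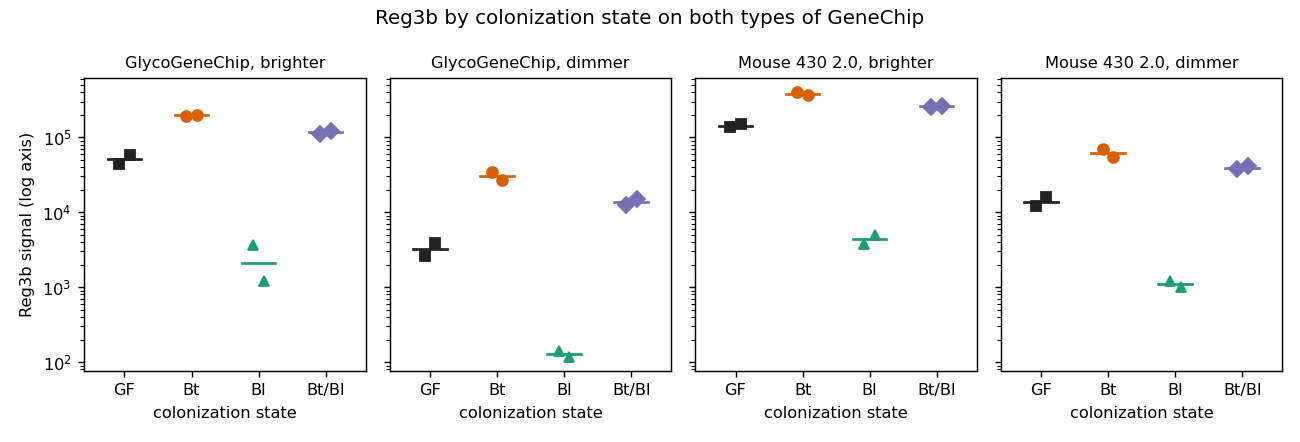
Reg3b signal (y axis, log) of each GeneChip in the 4 colonization states, for its 2 probe sets on the GlycoGeneChip and its 2 on the Mouse 430 2.0 (points are GeneChips, bars are the geometric mean of 2). In all 4 panels Bl lies lowest, GF next, then Bt/Bl, and Bt highest.

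The same order held for Reg3b on the Mouse 430 2.0, the genome-wide GeneChip hybridized with the same 4 states. Its brighter probe set had 136536 and 151076 in GF, 405724 and 362467 in Bt, 3803 and 4930 in Bl, then 252956 and 263622 in Bt/Bl, and the change of the mean of the colonized states was -0.93 (adjusted p = 0.054). The dimmer one had 12069 and 15801, then 70388 and 54835, then 1221 and 1016, then 37781 and 41154, and its change was 0.02 (adjusted p = 0.99). On this array too the mean over the states hid changes of opposite sign.

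Reg3b was 1 of 13 genes, with 14 probe sets, that passed an F test of any difference among Bt, Bl and Bt/Bl (3.1% of 451, and 63 probe sets had an unadjusted p under 0.05). The contrasts hold no GF term, but GF enters the filter and the estimate of the spread, and the count was 5 without GeneChip 9175 and 6 without GeneChip 9176 of GF. Without the filter or without the intensity trend the 2 probe sets of Reg3b alone passed. Gne, the first enzyme of sialic acid synthesis, had 4510 and 4641 in GF, 6701 and 5808 for Bt, 1577 and 1659 for Bl, and finally 6334 and 6775 for Bt/Bl (adjusted p of F = 0.0044 by limma). It was 3.86-fold higher in Bt than in Bl and 4.05-fold higher in Bt/Bl than in Bl. On the Mouse 430 2.0 the brighter probe set of Gne had 4281 and 3864 in Bt, 5179 and 3919 in Bl, then 4545 and 5025 in Bt/Bl, and the F test did not pass there (adjusted p = 0.88).

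Cmas, which activates sialic acid to its nucleotide sugar, had 5760 and 8290 in GF, 11921 and 6708 for Bt, 6070 and 4575 for Bl, and finally 16621 and 11696 for Bt/Bl (adjusted p of F = 0.031 by limma). Bl was lowest and Bt/Bl highest among the colonized states. Cmas did not pass the F test without the floor or under median or quantile scaling. Its change of the mean was 0.33, and -0.16 on the Mouse 430 2.0 (adjusted p = 0.767 and 0.900 by limma). St6galnac4, a sialyltransferase that caps O-glycans, had 32612 and 35411 in GF, 29479 and 36212 in Bt, 20287 and 24433 in Bl, then 16180 and 18214 in Bt/Bl (adjusted p of F = 0.047 by limma). This was the probe set of the gene with the highest signal, and 2 further ones had changes of the mean of -0.13 and -0.18 (adjusted p = 0.952 and 0.965).

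Ifngr1, the ligand-binding chain of the interferon gamma receptor, had 5631 and 7385 in GF, 5821 and 4558 for Bt, 4584 and 6462 for Bl, and finally 12809 and 15256 for Bt/Bl (adjusted p of F = 0.0092 by limma). Only Bt/Bl stood apart, at 2.71-fold above Bt and 2.57-fold above Bl, but the brighter probe set of the gene ran from 74403 to 146314 after colonization and did not pass (adjusted p of F = 0.375). On the Mouse 430 2.0 the probe set of Ifngr1 had 5867 and 6199 in Bt, 5939 and 8019 in Bl, then 8823 and 6513 in Bt/Bl, and the colonized states overlapped one another (adjusted p of F = 0.77). All 6 lay above the GF signals of 4471 and 5862 there (log2 fold change 0.41, adjusted p = 0.66). Hexa, a subunit of lysosomal hexosaminidase, had 4529 and 3272 in GF, 5929 and 3946 in Bt, 6751 and 3323 in Bl, but 216 and 1728 in Bt/Bl (adjusted p of F = 0.0092 by limma). The value of 216, from GeneChip 9179, lay under the floor. Hexa did not pass with the floor at the median, without the filter, with the stricter filter or without the intensity trend. Its change of the mean was -0.62, and 0.08 on the Mouse 430 2.0 (adjusted p = 0.775 and 0.943 by limma).

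The other 7 genes were dim in most states, and each entered the test through 1 colonized state alone, so that state had to be the higher one and the direction is not a result. Bmp6, a bone morphogenetic protein, had 1005 and 1891 in Bt and between 65.7 and 260.1 in all other states. Ccr1l1, a chemokine receptor, had 3464 and 1674 in Bl and between 99.1 and 409 elsewhere. Fgfr4, a fibroblast growth factor receptor, had 1399 and 2440 in Bl and between 189 and 442 elsewhere. In these 3 genes the pair that admitted the gene did not overlap the other states. Dcn, the proteoglycan decorin, had 2995 and 2570 for Bt, 135 and 136 for Bl, and finally 359 and 149 for Bt/Bl, while GF gave 1272 and 161. Its brighter probe set overlapped between all states and did not pass (adjusted p of F = 0.703). Among the colonized states Fzd3, a Wnt receptor, Il2, a T cell growth factor, and Fgf3, a fibroblast growth factor, were highest in Bt/Bl, with 1864 and 1508, 1445 and 1598, and 1454 and 1701.

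Each state was also set against GF, and the 3 comparisons share the 2 GF GeneChips. In Bt 6 probe sets passed (1.33% of 451), in Bl 7 (1.55%) and in Bt/Bl 7 (1.55%). Mag and Epo were lower in all 3, with log2 fold changes of -2.72, -3.01 and -2.79 for Mag and of -2.07, -2.37 and -2.39 for Epo in Bt, Bl and Bt/Bl, but all of these rest on the same GF pair. Ccl27a passed in Bt and Bl. Both probe sets of Reg3b passed in all 3 states with the settings used here, and in Bl alone under each alternative. The remaining calls were Bmp6 higher in Bt, Ccr1l1 and Fgfr4 higher in Bl, and in Bt/Bl Fgf3 higher with Hexa and St6galnac4 lower. Bmp6, Ccr1l1, Fgfr4 and Fgf3 had been admitted to the test through the state in which they were called, which set their direction, as GF did for Mag, Epo and Ccl27a. Without the intensity trend the counts were 0, 2 and 0.

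The lists of glycan and signalling genes were described by counts and medians, to be read beside all 451 probe sets, of which 0.665% were called lower, 0% higher and 46.6% lay above 0, with a median of -0.06. Of the 451, 172 had entered the test through colonized states only, which favours a higher direction, and 33 through GF alone, which sets a lower one. The counts and medians of the lists are therefore partly set by the filter. In the Reg family 5 probe sets of 3 genes were tested, 2 of them above 0 and 3 below, with a median of -0.48. Reg1 had 2567 and 1257 in GF and a lowest, median and highest colonized signal of 168, 723 and 2068 (log2 fold change -1.27, adjusted p = 0.716), and the 2 probe sets of Reg2 had changes of 1.05 and -0.57. No direction was shared. Galectins bind galactose-containing glycans, and of their 5 tested probe sets 0 passed. Lgals4, the galectin of intestinal epithelium, had 253914 and 274252 in GF, 289894 and 308869 in Bt, 260250 and 271350 in Bl, then 254299 and 240188 in Bt/Bl. Its log2 fold change was 0.03, with a 90% interval from -0.34 to 0.41.

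Lgals8 had 14325 and 10679 in GF and 7686, 10584 and 12635 as the lowest, median and highest colonized signal with its brighter probe set (log2 fold change -0.24, 90% interval from -0.65 to 0.16). Both galectins thus overlapped between the groups. Among the Siglecs, which bind sialic acid on leukocytes, Mag passed and the 4 others tested did not. Siglecf had 1633 and 286 in GF against 1291, 2378 and 3241 (1.72, adjusted p = 0.499), with the low GF value on GeneChip 9176. Of 24 probe sets of surface C-type lectins and selectins 11 were above 0, 13 below and 0 passed. Mbl1 and Mbl2, the mannose-binding lectins of plasma and the 2 tested members of the collectins, had changes of 0.34 and 0.82 (adjusted p = 0.964 and 0.856).

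**Figure D4:**
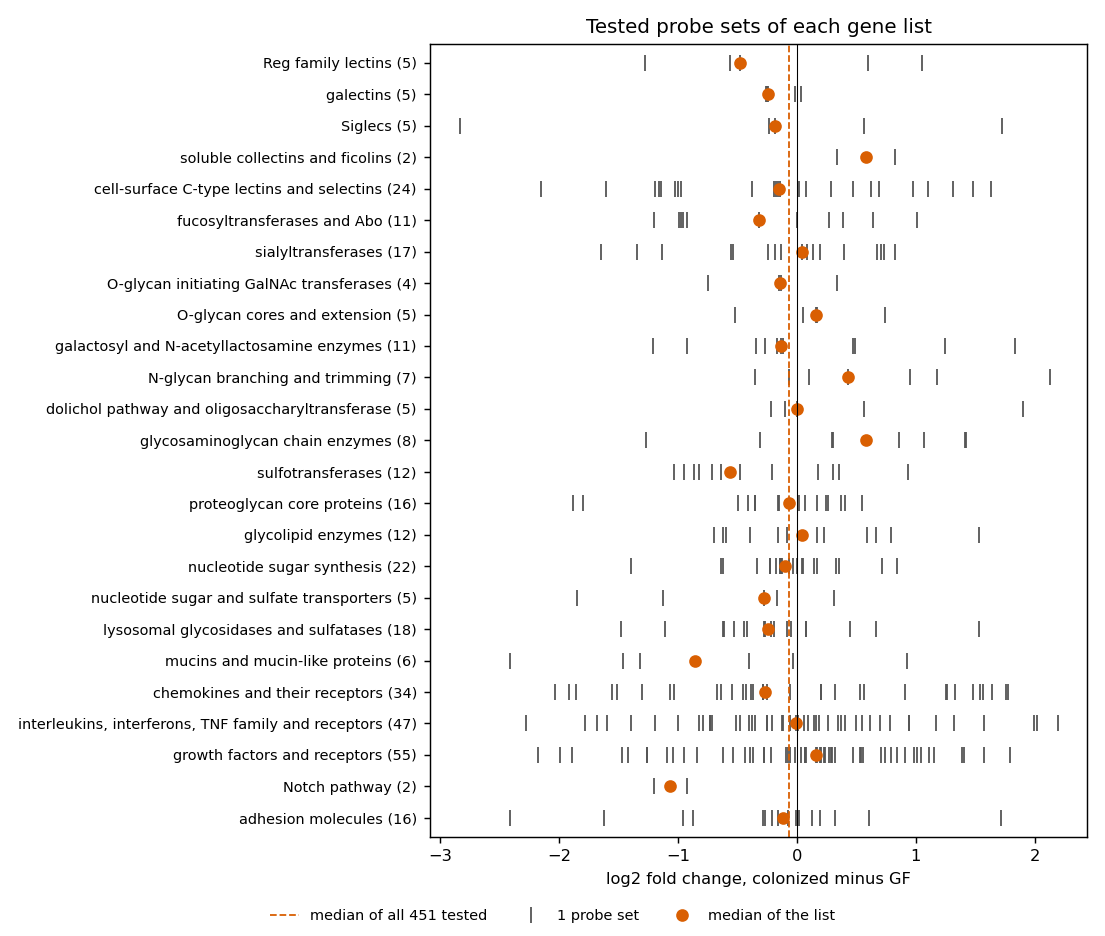
Log2 fold change between the mean of the colonized states and GF (x axis) for the tested probe sets of 25 gene lists, with the number tested in brackets. Ticks are probe sets, orange points the median of each list, and the dashed line the median of all 451, -0.06; most lists reach to both sides of 0.

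The enzymes that cap glycans showed no common direction. Of 11 probe sets of fucosyltransferases, which add the fucose that B. thetaiotaomicron is known to harvest, 5 were above 0 and 6 below, and 0 passed. Fut8, the core fucosyltransferase of N-glycans, had 1707 and 660.0 in GF and 1539, 2091 and 2999 as the lowest, median and highest colonized signal (log2 fold change 1.01, adjusted p = 0.716). Pofut1, which adds fucose to Notch, had -1.20 and -0.93 in its 2 probe sets (adjusted p = 0.767 and 0.716). Neither gene separated the groups.

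Sialyltransferases add the terminal sialic acid, and 9 of their 17 probe sets were above 0. St6gal1 had 975 and 2416 in GF against 173, 283 and 3282 (log2 fold change -1.65, adjusted p = 0.511), but 0.67 with its other tested probe set. The first of these had entered the test through GF alone. St8sia2, a polysialyltransferase, had 3141 and 2411 against 1540, 7238 and 8593 (0.82, adjusted p = 0.531). St6galnac6, chosen after its values were seen, was bright, with 6123 and 10170 in GF against 9799, 14047 and 16015 (0.73, standard error 0.25, adjusted p = 0.348). Only 1 colonized GeneChip lay below the higher GF one, whereas on the Mouse 430 2.0 all colonized signals of its brightest probe set were higher than GF (0.47, adjusted p = 0.506).

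O-glycans begin with GalNAc transferases. Galnt1, Galnt3, Galnt6 and Galnt7 had changes of -0.75, -0.14, -0.15 and 0.34, and 0 passed. Gcnt3, which branches the mucin core, had 8213 and 9372 in GF and 6686, 10052 and 12425 as the lowest, median and highest colonized signal (log2 fold change 0.16, 90% interval from -0.28 to 0.59). B4galt1, which adds galactose, had 192 and 2606 in GF against 2375, 2705 and 4868 (1.84, adjusted p = 0.499). The GF pair differed widely, and B4galt1 passed without GeneChip 9176 of GF (3.47, adjusted p = 0.037 by limma).

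N-glycans are built on dolichol, transferred whole and then trimmed and branched. Of 7 branching and trimming probe sets 5 were above 0 and 0 passed, with a median of 0.43. Mgat2, a branching enzyme, had 135 and 213 in GF and a lowest, median and highest colonized signal of 163, 1721 and 3123 (log2 fold change 2.13, adjusted p = 0.499). Mgat4a had 2955 and 747 against 2346, 2911 and 5664 (1.18, adjusted p = 0.499). Both, like the list members Man2a1 and Mgat3, had entered the test through colonized states only, which favoured a higher direction. On the Mouse 430 2.0 Mgat2 had -0.01 and Mgat4a 0.26. Dad1 and Rpn2, subunits of the oligosaccharyltransferase, were measured closely. Dad1 had 9780 and 9690 in GF against 7223, 9450 and 10920 (-0.10, 90% interval from -0.53 to 0.32), and Rpn2 had a change of -0.22 with an interval from -0.69 to 0.25.

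Glycosaminoglycan enzymes had 6 of 8 probe sets above 0 and a median of 0.58, and sulfotransferases had 8 of 12 below 0 and a median of -0.56, with 0 passing in either list. Extl2, a GlcNAc transferase of heparan sulfate, had changes of 1.42 and 1.42 in its 2 probe sets (adjusted p = 0.713 and 0.531). Both, like the list member B3gat3, had entered the test through colonized states only, which favoured a higher direction. Glce, the heparan sulfate epimerase, had 2315 and 2312 in GF and 135, 1503 and 1835 as the lowest, median and highest colonized signal, without overlap (log2 fold change -1.27, adjusted p = 0.750). Hs2st1, which sulfates heparan chains, had -0.82 without overlap and 0.94 with its other probe set. On the Mouse 430 2.0 the brightest tested probe sets of Extl2, Glce and Hs2st1 had -1.37, -0.74 and -0.38, so Extl2 went the other way there. Of 16 proteoglycan core probe sets 8 were above 0 and 0 passed.

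Nucleotide sugars are the donors of all these reactions. Of 22 probe sets for their synthesis 8 were above 0 and 14 below, with a median of -0.10. Galt, of galactose metabolism, had 4119 and 1670 in GF against a lowest, median and highest colonized signal of 2584, 4891 and 7897 (log2 fold change 0.84, adjusted p = 0.515). Slc35a2, the UDP-galactose transporter of the Golgi, had 3445 and 3775 against 359, 772 and 3202 without overlap (-1.85, adjusted p = 0.531). It had entered the test through GF alone, which set its direction. Slc35b1 had 0.31 with a 90% interval from -0.13 to 0.74. Lysosomal glycosidases and sulfatases had 13 of 18 probe sets below 0 and a median of -0.24. Manba and Gusb, a mannosidase and a glucuronidase, had -1.48 and -1.11, and Glb1, a galactosidase, had 1.53 (adjusted p = 0.685, 0.767 and 0.531).

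Mucins and mucin-like proteins, a list that also holds Madcam1, Cd34 and Selplg, had 5 of 6 probe sets below 0 and a median of -0.86. Of the 6, 2 had entered the test through GF alone, Muc1 and Madcam1. The members with a tested counterpart on the Mouse 430 2.0 had a median of 0.14 there. Muc1, a membrane mucin, had 2164 and 1944 in GF against 147, 914 and 1697 as the lowest, median and highest colonized signal (log2 fold change -1.47, adjusted p = 0.713), and entered the test through GF alone. Of 34 chemokine and chemokine receptor probe sets 15 were above 0, 19 below, and only that of Ccl27a passed, which is 1 of 34 beside 3 of 451 and had entered through GF alone. Cxcl10, an interferon-induced chemokine, had 961 and 2994 in GF against 112, 244 and 2861 (-1.92, adjusted p = 0.499). Its single high colonized value came from GeneChip 9179 of Bt/Bl, and Cxcl10 had entered the test through GF alone.

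Of 47 probe sets of interleukins, interferons, tumour necrosis factor family members and their receptors 23 were above 0 and 24 below, and only Epo passed, admitted through GF alone as well. Il17ra, an interleukin-17 receptor chain, had 447 and 289 in GF against 254, 2290 and 3063 as the lowest, median and highest colonized signal (log2 fold change 2.19, adjusted p = 0.499). Growth factors and receptors had 32 of 55 above 0, a median of 0.16 and 0 calls. Icam1, Itga3 and Vcam1, of the adhesion molecules, had 1.72, -1.62 and -0.96 (adjusted p = 0.499, 0.531 and 0.833), and 10 of the 16 tested probe sets of that list were below 0. Vcam1 had entered the test through GF alone and Icam1 through Bl alone. The lists not yet counted were O-glycan cores (4 of 5 above 0, median 0.16), galactosyl enzymes (4 of 11, -0.14), the dolichol pathway (3 of 5, 0.00), glycolipid enzymes (6 of 12, 0.04), transporters (1 of 5, -0.27) and the Notch pathway (0 of 2, both Pofut1, -1.06), and 0 passed in each. Of the 5 transporter probe sets 2 had entered the test through GF alone.

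Directions were then checked on the Mouse 430 2.0, taking the brightest tested probe set of each gene. The same contrast called 28 of 24865 probe sets higher (0.113%) and 32 lower (0.129%) there. Of the 451 GlycoGeneChip probe sets 335 had a gene tested on both arrays, and 178 of these (53.1%) changed in the same direction. The share was 93 of 158 (58.9%) where the mean signal exceeded 2118.5, the 75th percentile of all values, and 85 of 177 (48.0%) where it did not. Whether the 2 arrays received the same RNA is not stated, and the 335 probe sets share genes.

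**Figure D5:**
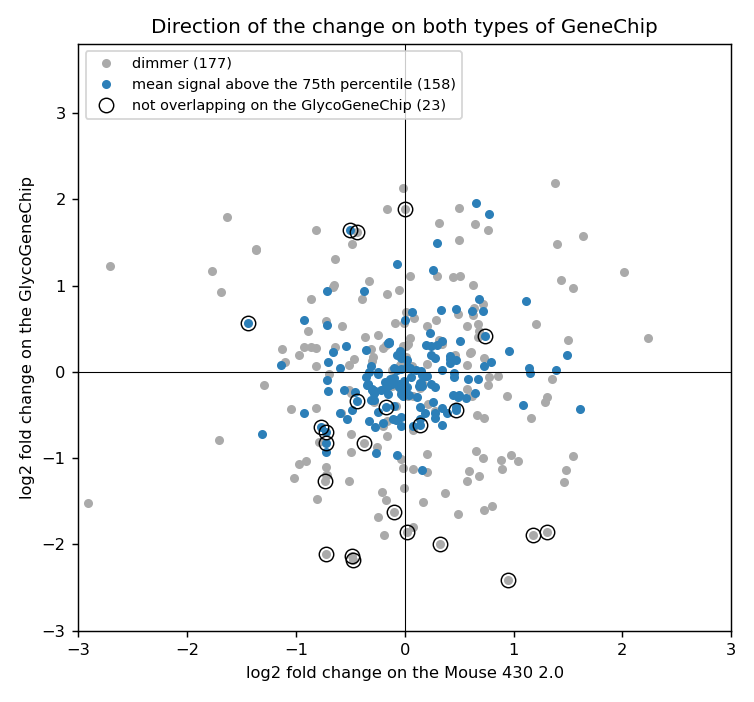
Log2 fold change between the mean of the colonized states and GF on the GlycoGeneChip (y axis) against that of the brightest tested probe set of the same gene on the Mouse 430 2.0 (x axis), for 335 probe sets. Blue points had a mean signal above 2118.5, circles did not overlap between groups on the GlycoGeneChip, and the points fill all 4 quadrants.

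Only 1 of the 335 was called on the Mouse 430 2.0, Tenm4, a teneurin of the cell surface, with -2.71 there (adjusted p = 0.038 by limma) and 1.23 on the GlycoGeneChip (adjusted p = 0.716). None of the 3 called probe sets could be checked. Mag and Ccl27a each had 1 probe set on the Mouse 430 2.0 that did not pass the filter, with 572 and 93.5 in GF for Mag and 74.6 and 52.7 for Ccl27a, and Epo had none. For Mag the colonized signals ran from 57.1 to 2181, so the groups overlapped. Among the probe sets without overlap, 11 of 18 lower and 1 of 5 higher ones had the same direction on the Mouse 430 2.0. In 4 genes, named after their values were seen, the groups did not overlap on either array and the direction was the same, and 0 went in opposite directions.

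These 4 were Papss1, Tgfbr2 and Fst on the lower side and Pgm1 on the higher. On the Mouse 430 2.0 Papss1 had 6192 and 6073 in GF, 3498 and 1422 for Bt, 3640 and 5160 for Bl, and finally 5217 and 4360 for Bt/Bl (log2 fold change -0.77, adjusted p = 0.534). Pgm1 had 3039 and 2560 in GF, 4971 and 5498 in Bt, 4617 and 4168 in Bl, then 4071 and 4757 in Bt/Bl (0.74, adjusted p = 0.506). A further, dimmer probe set of Pgm1 had a change of -0.40 with overlap. Tgfbr2 and Fst had -0.47 and -0.72 (adjusted p = 0.681 and 0.811), against -2.18 and -2.11 on the GlycoGeneChip, and their dimmer tested probe sets had 0.41 and 1.47. None of these passed on either array, and 8.36% of the 335 did not overlap on the Mouse 430 2.0. Tgfbr2 and Fst had entered the GlycoGeneChip test through GF alone, so they had to be lower there, and only Papss1 and Pgm1 had passed the filter in all 4 states.

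Pcbp1 had -2.14 on the GlycoGeneChip, where it had entered through GF alone, and -0.48 with overlap on the Mouse 430 2.0 (adjusted p = 0.583 by limma). Several other large changes had no counterpart. Zmat2, with a change of 1.89 on the GlycoGeneChip, had 15378 and 14591 in GF and between 13857 and 16148 after colonization on the Mouse 430 2.0 (adjusted p = 0.998), and 0.60 with its brighter GlycoGeneChip probe set. Madcam1 had -2.42 and 0.95, Fmod -1.89 and 1.18, and Pigb 1.64 and -0.50 on the GlycoGeneChip and the Mouse 430 2.0. The probe sets of Ifng, Cxcl9, Ccl12, Cxcr2 and Cd69 on the Mouse 430 2.0 did not pass the filter.

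The GF GeneChips also differed from the colonized ones in a control ratio, and on the Mouse 430 2.0 in some markers of cell types and of sex. Whether these differences came with colonization was not tested. On the GlycoGeneChip the control probe sets of Gapdh, whose 3'/5' signal ratio depends on RNA integrity and amplification, gave 5.25 and 6.60 in GF and 7.42 to 16.4 in the colonized states. For β-actin it was 30.45 and 26.0 in GF and overlapped with 18.3 to 32.8. Cell type markers were measured on the Mouse 430 2.0, since the GlycoGeneChip holds few of them. All 12 epithelial markers were tested there, and their summed signal was 2079681 and 2373254 in GF and 1944669 to 2820026 elsewhere, with Aqp8 alone called (3.38-fold higher after colonization, adjusted p = 3.2e-04 by limma). Of 7 goblet cell markers Spink4 was called higher (2.12-fold, adjusted p = 0.0208 by limma). Muc2 and Clca1 were 1.81-fold and 1.40-fold higher without overlap (adjusted p = 0.137 and 0.486 by limma). Agr2, Fcgbp and Tff3 had log2 fold changes of -0.09, -0.02 and -0.16 and Zg16 had 0.20, all with overlap. The sum of the goblet cell list was 860851 to 1013918 in GF and 861108 to 1389362 elsewhere. Summed markers of T cells (1960 to 2120 in GF, 615 to 4954 elsewhere) were low.

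Of 5 listed markers of B and plasma cells 2 were tested, Igha and Jchain, and both were called lower. Cd79a did not pass the filter and overlapped, with 278.6 and 674.5 in GF and 44.8 to 560 elsewhere. Igha, the heavy chain of immunoglobulin A, had 113964 and 95694 in GF and 12171 to 49896 in the colonized states, and Jchain, which links such chains, was called lower too (adjusted p = 0.038 by limma). The ileal enterocyte list was split. Fabp6, a bile acid-binding protein, had 68029 and 95108 in GF against 1179 to 1798, and Apoa1, an apolipoprotein, 39656 and 34578 against 936 to 2684, whereas Fabp2, Apoa4 and Slc10a2 overlapped and so did the sum of the list, at 640730 to 761378 in GF and 600228 to 1033238 elsewhere. Fibroblast markers, of which 0 of 5 were called, summed to between 24772 and 30659 in GF and 10638 to 21974 elsewhere. Dcn, on that list, had a log2 fold change of -0.81 there and 0.07 with the GlycoGeneChip probe set of the F test. Fmod, also made by such cells, had 1.18 and -1.89. The part of fibroblasts in these values was not tested. The Y chromosome gene Eif2s3y had 71.3 and 614 in GF against 3201 to 5657, and Xist, which is transcribed from the inactive X chromosome, had 17157 and 22762 against 3753 to 11176. Kdm5d, the remaining sex marker tested, overlapped, with 178.5 and 300.7 in GF against 145.2 to 1159.5. The paper describes all animals as males, and a difference in sex between the pools was not tested. Whether the GlycoGeneChip received the same RNA is not stated, and the part of these differences in the GlycoGeneChip results was not tested. In pooled tissue fewer cells of a type and less RNA per cell cannot be told apart.

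The human probe sets of the array were put through the same contrast. Of 457 that passed the same filter 5 were called, 1 higher and 4 lower (1.09%), and 48 had an unadjusted p under 0.05. All 4 lower ones had entered the test through GF alone and so had to be lower. The mouse probe sets gave 3 calls of 451. The human probes were designed on another species, and their signals were hybridized with mouse RNA.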

How the data were processed

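Deposited values were linear signal intensities per probe set, made by the authors with MAS5 (per the submitters' processing notes) and scaled by the authors on each GeneChip. Detection calls are not in the table, whereas dChip is the program named in the paper's methods. The intensities were used without further scaling. For 8 GlycoGeneChips log2 signals above the floor of 268.1 entered a limma model (version 3.58.1, R 4.3.3) of 4 states with 4 residual degrees of freedom, in which eBayes let the spread follow the intensity. The contrast was the mean of the 3 colonized states minus GF, with Benjamini-Hochberg adjustment over 451 probe sets and a threshold of 0.05. The Mouse 430 2.0 table was treated in the same way, with all probe sets but controls (floor 144.7, filter 583.1). Gene names came from the platform annotation, updated through gene identifiers, and 15 missing values, 0 of them on mouse probe sets, were left out.

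The genes named are the called ones, then those without overlap between GF and colonized signals up to 10 per direction by size of change, Reg3b, up to 4 members of each list by size of change, and the probe sets of the F test, of which 10 fall under the rule and 4 were added so that each is accounted for. Further genes are marked as chosen after their values were seen. The members and lists were chosen with earlier results of these data known. The floor, the filter and the fit were run on simulated data with known changes, and only the main contrast was scored. Alternatives were other floors, filters, scalings, models of the spread and call rules, each state left out of the mean and each GeneChip left out. The number of GeneChips limits the precision. Probe sequences were not used here, and the bacterial GeneChips were not analysed here.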

Additional observations from a re-analysis of the deposited data

Results flagged for a closer look

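In 3 named genes 1 of the 6 colonized GeneChips stood apart from the others, judged by Dixon's test on the gap to the nearest GeneChip as a share of the whole log2 range. For Epo this was GeneChip 9177 of Bt at 421 (gap 0.926), for Ccl27a GeneChip 9180 of Bt/Bl at 433 (gap 1, since all 5 others lay under the floor), and for Cd69 GeneChip 9568 of Bt at 1073 (gap 0.626). The floor sets all lower signals to 1 value, so the rate of about 1 in 20 groups by chance does not hold for these gaps. Without the floor they were 0.364, 0.489 and 0.436, under the limit of the test.

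The colonized states differed among themselves in 14 probe sets, by limma's F test. The adjusted p was 1.21e-25 and 1.15e-17 for the 2 probe sets of Reg3b, 0.0017 for Bmp6, 0.0021 for Ccr1l1, 0.0044 for Gne, 0.0092 for Hexa and for Ifngr1, 0.0177 for Fgfr4 and for Dcn, 0.0315 for Cmas, and 0.0472 for Fzd3, Il2, St6galnac4 and Fgf3. For Fzd3 and Il2 no single pair of states passed. Bmp6, Ccr1l1, Fgfr4, Dcn, Fzd3, Il2 and Fgf3 were admitted to the test through 1 colonized state alone.

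Signal in the human probe sets, which no comparison between states uses, differed between GF and the mean of the colonized states for 5 of them. The 4 lower ones were admitted to the test through GF alone. The log2 fold change was -1.81 for IDS, -1.88 for POFUT1, 1.47 for CTNNB1, -1.82 for ERBB3 and -1.86 for LAMP2. CTNNB1 had 2155 and 7441 in GF and 8856 to 15050 after colonization, while IDS, a lysosomal sulfatase, had 869 and 1069 against 149 to 306. Other tested probe sets of IDS had log2 fold changes of -1.74, 1.94 and 0.92, and none of them passed. That with 1.94 was higher without overlap, so the direction for IDS depended on the probe set.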

How the results depend on the processing

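The values of 582 alternatives to 30 named probe sets kept their direction and their side of the threshold in 541 cases, and 23 lost and 6 gained a call while 12 changed sign. Most of the 541 concern probe sets that were not called to begin with. The losses were in 8 of 20 alternatives for Mag, 7 of 19 for Epo and 8 of 19 for Ccl27a. The other named probe sets had no call of the mean to lose. The 3 lower calls stayed under median, 75th percentile and quantile scaling. Without the floor 1 was lower, and 7 passed the F test, 2, 3 and 0 the tests of Bt, Bl and Bt/Bl against GF, and 0 human probe sets were called. With the floor at the median the F test gave 3, and the states 2, 2 and 1. Without the filter the counts were 0 lower, 2 by F, 1, 2 and 0 by state and 0 human. With a filter at the 75th percentile they were 0, 3, 2, 2 and 1, and 0. Without the intensity trend they were 0, 2, 0, 2 and 0, and 0. With 2 groups 0 were lower and 1 human probe set was called, as with 75th percentile scaling. Without Bt in the mean 5 were lower and 3 human probe sets called, and without Bl 2 were higher. The rule that the lower 90% bound of the fold exceed 1.2 gave 22 higher and 15 lower.

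With 1 GeneChip left out, the higher count ran from 0 to 2, the lower from 0 to 7, the F test from 4 to 19, Bt from 1 to 8, Bl from 2 to 12, Bt/Bl from 0 to 11 and the human count from 0 to 13. The median of all tested was -0.27 without GeneChip 9175 and -0.25 without 9176. Sign changes were 1.59 for the brighter probe set of Reg3b without Bl in the mean, and for the dimmer one -0.73 without Bt and -0.16 without Bt/Bl. Gne had 0.48 without Bl, Hexa 0.31, Ifngr1 -0.28 and Cmas -0.0096 without Bt/Bl, and Ifngr1 ran from -0.0131 without GeneChip 9175 to 0.378 without 9176. Dcn had -0.032 without the floor, -1.02 without Bt, -1.05 without GeneChip 9176, 1.19 without GeneChip 9175 and -0.0008 without GeneChip 9179. The cause was not tested. The alternatives for human probe sets were chosen after seeing the data. No paired analysis was possible because the states share no replicate number. Dim probe sets limit what can be seen, since their standard error is near 1 on the log2 scale.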
